A study of Rattus norvegicus with 6 samples.

Results

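The genes described here encode alpha- and beta-tubulin isotypes, the proteins that pair into the dimers from which microtubules are built. The members are the rows of the deposited count table whose symbol is 1 of 10 listed names, and all 10 were present among the 29884 genes of the table. Of these, 3 encode alpha-tubulins (Tuba1a, Tuba1b and Tuba4a) and 7 encode beta-tubulins (Tubb2a, Tubb2b, Tubb3, Tubb4a, Tubb4b, Tubb5 and Tubb6). All 10 passed the low-count filter that left 15464 genes for testing. The study sequenced mRNA from sciatic nerve of wild-type rats with chronic constriction injury (CCI), a ligature model of neuropathic pain. One group of 3 libraries came from injured, untreated nerve, and the other group of 3 from injured nerve treated with PLLA-PCL-RVC, which the series describes as a piezoelectric conduit carrying ropivacaine, a local anaesthetic. All 6 libraries are thus from injured nerve, and no uninjured nerve and no conduit without drug is among the samples used here. The labels give no age, sex or time after injury and do not say whether each library is 1 animal, and the p-values below reflect only how far these libraries spread, part of which may be technical.

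Microtubules are hollow polymers of alpha-beta dimers, and every dividing, migrating or process-bearing cell needs them. Mammals carry several genes for each subunit, and their proteins differ mainly in the acidic tail at the C-terminus, where most modifying enzymes and many motor proteins act. In peripheral nerve, microtubules run along axons as tracks for transport and through the cytoplasm of Schwann cells, where they carry myelin components outward to the sheath. Most cell types express a mixture of isotypes, and neurons, dividing cells, muscle and platelets are known for characteristic mixtures. The coding sequences of the isotypes are close to one another, so short reads from shared stretches can be dropped or assigned to the wrong copy. Levels and ratios between isotypes are therefore uncertain to that extent, most of all for the pair Tubb2a and Tubb2b and for Tuba1a, Tuba1b and Tuba1c.

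All 10 members had an entry among the RefSeq promoter sequences of the GRCr8 assembly. Printed below are the 120 bases before the start site for 2 pairs of related beta-tubulin genes, chosen because the genes within each pair differed in these nerves. Each is written 5′ to 3′ along the gene. Capitals mark the TATA box letters TATAAA, the CCAAT box, the GC box GGGCGG and the cAMP response element TGACGTCA, searched on both strands. The stretches are chr9:2012282-2012401 on the minus strand for Tubb4a, chr3:28438456-28438575 on the minus strand for Tubb4b, chr17:31002066-31002185 on the plus strand for Tubb2a and chr17:30952966-30953085 on the plus strand for Tubb2b.
Tubb4a: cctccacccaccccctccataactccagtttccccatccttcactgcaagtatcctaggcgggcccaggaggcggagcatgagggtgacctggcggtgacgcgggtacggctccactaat
Tubb4b: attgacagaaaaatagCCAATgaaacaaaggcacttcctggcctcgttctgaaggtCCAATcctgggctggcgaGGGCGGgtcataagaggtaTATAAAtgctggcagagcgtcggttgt
Tubb2a: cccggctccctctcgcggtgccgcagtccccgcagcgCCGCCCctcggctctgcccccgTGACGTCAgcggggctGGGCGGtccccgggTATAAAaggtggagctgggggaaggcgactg
Tubb2b: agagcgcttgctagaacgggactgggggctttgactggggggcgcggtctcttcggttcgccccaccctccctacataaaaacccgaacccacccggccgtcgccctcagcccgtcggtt

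The related promoters shared few of these letters. In the 250 bases before its start, Tubb4b held 4 CCAAT boxes, 2 GC boxes and a TATA box, whereas none of the 4 motifs was found in that window of Tubb4a. Tubb2a held the cAMP response element letters 61 bases before its start, with a TATA box at 31 bases. Tubb2b, which lies on the same chromosome with 1 gene between them, held 1 of the 4 motifs, a CCAAT box at 193 bases. Among 33469 rat promoters searched the same way, 12.9% held TATAAA, 34.0% CCAAT, 30.5% GGGCGG and 1.59% TGACGTCA. The EGR letters GNGTGGGNG were present once each in Tubb4a and Tubb2b and in 11.3% of all promoters, and the AP-1 letters TGANTCA were in none of the 10 members and in 6.34% of all promoters. The SOX core letters ACAAAG were present in Tuba1a, Tubb4b and Tubb5 and in 16.3% of all promoters. The cell cycle homology letters TTTGAA were present in Tubb4b and in 16.2% of all promoters. A match describes the letters only.

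Tubulin isotypes moved apart in conduit-treated nerve. Tubb4a and Tuba1a were higher, Tubb6, Tubb2b, Tubb5 and Tuba4a were lower, and Tuba1b, Tubb3 and Tubb4b did not pass the test. Tubb2a passed narrowly as higher. Levels are given as TMM-scaled CPM, the count relative to a library size adjusted by the trimmed mean of M-values. Tests are edgeR's quasi-likelihood F test with Benjamini-Hochberg adjustment over all 15464 genes, called at an adjusted p under 0.05. By this rule 3 of 10 members were higher and 4 lower. Of all genes tested, 24.0% were higher and 26.2% lower (50.2% in either direction), so the number of members called is not far from what the transcriptome as a whole showed. The values of the groups did not overlap in 3 members that were higher and 5 that were lower, against 29.5% and 32.2% of all genes tested (61.7% in either direction). The median log2 fold change was -0.20 for the members and -0.04 for all genes. In bulk tissue, a change in the number of cells of a type and a change in RNA per cell cannot be told apart.

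**Figure D1:**
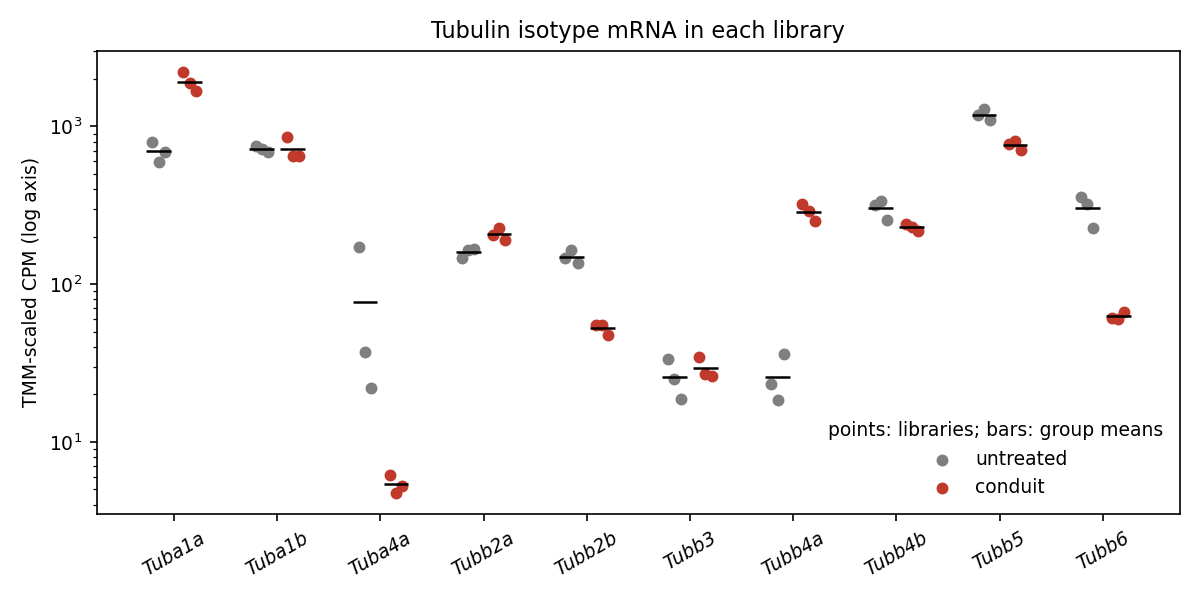
TMM-scaled CPM (log axis) of the 10 tubulin genes, with 1 point per library, grey for untreated and red for conduit, and a bar at each group's mean. Tubb4a rises from 18.3 to 36.1 CPM in untreated nerve to 250.2 to 323 CPM in conduit nerve, Tubb6 and Tubb2b fall without overlap, and the 3 untreated points of Tuba4a are spread widely.

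Total counts ran from 38401951 to 42225086 per library, and the members together took 0.416 ± 0.034% of all counts in untreated and 0.373 ± 0.035% in conduit nerve (SD, n = 3 each). The labels carry 5 batch numbers and no batch holds both groups, so batch and treatment cannot be told apart in any result here. TMM factors were 1.12 to 1.18 in untreated and 0.852 to 0.904 in conduit libraries, and scaling by library totals instead of TMM moved the median log2 fold change of all genes from -0.04 to -0.43. Under that scaling 2291 genes were higher and 6554 lower, against 3711 and 4049 with TMM, and 2 members were higher and 5 lower. Schwann cell markers were plentiful, at 8404 to 18813 CPM summed in untreated and 101897 to 139245 CPM in conduit libraries, with 8 of 10 called higher and Ngfr lower. Proliferation markers went from 276 to 365 CPM summed in untreated libraries to 17.1 to 28.8 CPM in conduit libraries, and macrophage markers from 2946 to 3688 CPM to 465 to 849 CPM, with 10 of 10 called lower in both lists. T cell markers (6 of 7 called lower) summed to 187 to 275 CPM and 39.9 to 74.2 CPM. Cd4 (means of 150 and 52.9 CPM) and Cd8a (68.8 and 0.695 CPM) made up most of those sums. Cd3d, Cd3e and Cd3g averaged 1.29, 2.72 and 3.18 CPM in untreated nerve, and Cd3g did not pass. Perineurial markers (4 of 4 tested called higher) summed to 417 to 631 CPM and 2191 to 2612 CPM. Itgb4 alone was at 1467 to 1808 CPM in conduit libraries. Lypd2 was at 0 in every library, and Moxd1, below the count filter, averaged 0.340 CPM in untreated and 0.127 CPM in conduit nerve. The part of any of these cell types in the tubulin differences was not tested.

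Tubb4a showed the largest rise among the members. It encodes a beta-tubulin best known from brain, where neurons and myelin-forming oligodendrocytes express it. Untreated replicates 1, 2 and 3 had 23.3, 18.3 and 36.1 CPM of it, and conduit replicates 1, 2 and 3 had 323, 290.03 and 250.2 CPM. Every conduit library lay far above every untreated one, and untreated replicate 3 was the highest of its group. The log2 fold change was 3.47 ± 0.28 (SE), an 11.1-fold difference, with an edgeR adjusted p of 0.000127. With single libraries left out it ran from 3.28 to 3.79.

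Tuba1a, an alpha-tubulin known for high expression in developing neurons and for induction in neurons that regrow an axon, was the other clear rise. Untreated libraries had 793, 593 and 692 CPM of Tuba1a, and conduit libraries 2216, 1872 and 1674 CPM. The groups were far apart, with a log2 fold change of 1.47 ± 0.18 (SE, edgeR adjusted p = 0.000597). Tuba1c, a broadly expressed alpha-tubulin outside the 10 members, rose as well, from 323 ± 41.2 to 696 ± 32.9 CPM (log2 fold change 1.11). In the GRCr8 gene table Tuba1a and Tuba1b are neighbours on chromosome 7 and both lie inside the span annotated for Tuba1c. The submitters' notes name another build, mRatBN7.2, whose gene spans were not examined here. Reads of the 3 genes may have been shared among them through their close sequences, as said above, and this was not tested.

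Tuba1b, the alpha-tubulin that most cell types express, did not pass the test. It was at 752, 721 and 683 CPM in untreated and 854, 649 and 646 CPM in conduit libraries, and the groups overlapped. The log2 fold change was -0.0055 ± 0.16 (SE, edgeR adjusted p = 0.98), and it lay between -0.13 and 0.10 with single libraries left out. With library totals it was -0.39 (adjusted p = 0.0652), so its value depends on the scaling. Relative to Tuba1b in the same library, Tuba1a was present at 1.06, 0.824 and 1.01 times its FPKM in untreated nerve and at 2.60, 2.89 and 2.60 times in conduit nerve. FPKM is the count divided by gene length and library total, so this ratio is corrected for length and does not depend on how libraries are scaled. No conduit ratio overlapped an untreated one (exact permutation test on the log ratio, two-sided, p = 0.1, the smallest that 3 against 3 libraries allow).

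Tubb2a and Tubb2b encode nearly identical beta-tubulins that neurons express in abundance. Tubb2b fell from 147, 163 and 135 CPM in untreated libraries to 54.9, 54.9 and 47.6 CPM in conduit libraries. The groups did not overlap, and the log2 fold change was -1.50 ± 0.13 (SE, edgeR adjusted p = 0.000159). Tubb2a was at 146, 164 and 167 CPM in untreated and 204, 226 and 189 CPM in conduit libraries. All conduit values of Tubb2a were above all untreated ones, but the difference was small (0.38 ± 0.13 SE) and its edgeR adjusted p of 0.0461 was close to the threshold. That call did not hold in 11 of 16 alternative analyses, among them each one that left out a library other than conduit replicate 3, and the log2 fold change was -0.015 with scaling by library totals.

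The ratio within the pair does not depend on how libraries are scaled, but it carries the uncertainty of shared reads given above. Within each untreated library the FPKM of Tubb2a was 1.05, 1.06 and 1.30 times that of Tubb2b. Within each conduit library it was 3.91, 4.32 and 4.18 times that of Tubb2b. The ratio rose from 1.13 ± 0.143 to 4.14 ± 0.209 (SD, n = 3 each) with no overlap (exact permutation test, two-sided, p = 0.1, the smallest possible). As shown above, the promoter windows of the pair differ in all 4 capitalised motifs, and whether that bears on the ratio was not tested.

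**Figure D2:**
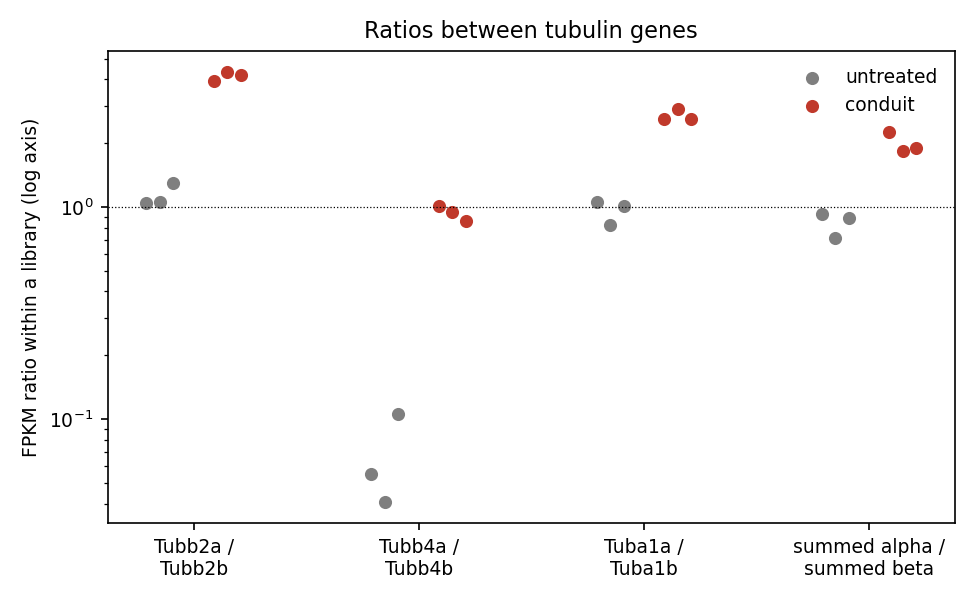
FPKM ratio between related tubulin genes within each library (log axis, 1 point per library, grey untreated and red conduit, dotted line at a ratio of 1). In every pair the conduit points lie above all untreated points, and Tubb4a goes from 0.041 to 0.105 of the Tubb4b level to 0.858 to 1.01 of it.

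Tubb5, listed elsewhere under the symbol Tubb, is the widely expressed beta-tubulin of dividing and non-dividing cells, and it was the most abundant beta member in both groups. It was at 1176.5, 1292 and 1096 CPM in untreated and 769.9, 811 and 709 CPM in conduit libraries, without overlap. The log2 fold change was -0.64 ± 0.14 (SE, edgeR adjusted p = 0.0075). The proliferation markers, whose genes mark cells that build a spindle, were lower in the same libraries by the values given above. Their part in the fall of Tubb5 was not tested.

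Tubb6, a beta-tubulin found at modest levels in most tissues, fell most among the beta members. Its values were 359, 321 and 227 CPM in untreated and 61.0, 60.5 and 66.4 CPM in conduit libraries. The conduit libraries were close together and well below the lowest untreated library. The log2 fold change was -2.27 ± 0.19 (SE, edgeR adjusted p = 0.000145), a 4.82-fold lower level.

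Tubb4b, a broadly expressed beta-tubulin that is also prominent in cilia, lay just outside the threshold. It was at 316, 335 and 256 CPM in untreated and 239.6, 229.8 and 218 CPM in conduit libraries. The groups did not overlap, although untreated replicate 3 was close to conduit replicate 1, and the log2 fold change was -0.40 ± 0.15 (SE, edgeR adjusted p = 0.0535). It passed as lower in 7 of 16 alternatives, among them DESeq2 (-0.37, adjusted p = 0.0357). Markers of ciliated cells were at 2.46 to 3.76 CPM summed in all libraries.

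Tubb3, the beta-tubulin used as a marker of neurons, did not pass. Its levels were 33.4, 25.1 and 18.6 CPM in untreated and 34.7, 26.7 and 26.1 CPM in conduit libraries, and the groups overlapped. The log2 fold change was 0.18 ± 0.23 (SE, edgeR adjusted p = 0.532). Left-out libraries moved it from -0.00040 (without untreated replicate 3) to 0.42. Neuronal cell bodies lie outside the sciatic nerve, and the nuclear neuron marker Rbfox3 was at 0.185 CPM in untreated and 0.268 CPM in conduit nerve on average. Among other neuronal markers, the axonal neurofilaments Nefl (-2.85, edgeR adjusted p = 0.0468) and Nefm (-2.91, 0.0143) passed as lower, and Uchl1 (0.96), Stmn2 (1.59), Syn1 (1.74) and Snap25 (2.11) rose. Levels of Syn1 and Snap25 were low, with means of 0.607 and 0.239 CPM in untreated and 2.04 and 1.05 CPM in conduit nerve. Untreated values of both neurofilaments were uneven, at 2.25, 83.5 and 44.96 CPM for Nefl and 6.82, 76.5 and 35.9 CPM for Nefm. Conduit libraries held 5.68 to 6.501 CPM of Nefl, above untreated replicate 1, and 4.74 to 5.94 CPM of Nefm. Summed, the 10 neuronal markers were at 83.7 to 211 CPM in untreated and 123 to 169 CPM in conduit libraries.

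Tuba4a had the lowest fold change and the most uneven untreated values. It is an alpha-tubulin of muscle, platelets and mature neurons whose encoded protein, unlike most alpha-tubulins, does not end in tyrosine. Its untreated values were 172 CPM in replicate 1, 37.1 CPM in replicate 2 and 22.02 CPM in replicate 3, and its conduit values 6.13, 4.75 and 5.26 CPM. Every untreated library lay above the conduit libraries, with replicate 1 far above the other two. The log2 fold change was -3.84 ± 0.77 (SE, edgeR adjusted p = 0.00515). Untreated replicate 1 also held skeletal muscle transcripts, with summed muscle markers at 10846 CPM there, 78.6 CPM in replicate 2, 9.23 CPM in replicate 3, and a range of 16.1 to 17.5 CPM in the conduit group. Of 8 muscle markers tested 7 were called lower and Myh7 higher (5.48, edgeR adjusted p = 0.000145). Myh7 went from 0.390, 0.101 and 0.276 CPM to 13.1, 12.55 and 8.77 CPM, the largest part of the conduit sum. Without untreated replicate 1 the log2 fold change of Tuba4a was -2.46 (adjusted p = 0.000728). Summed platelet markers were at 94.4 to 159 CPM in untreated and 19.2 to 35.6 CPM in conduit libraries, of which Pf4, also made by macrophages, was the 1 called among 4 tested. The part of muscle or platelet transcripts in the Tuba4a difference was not tested.

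**Figure D3:**
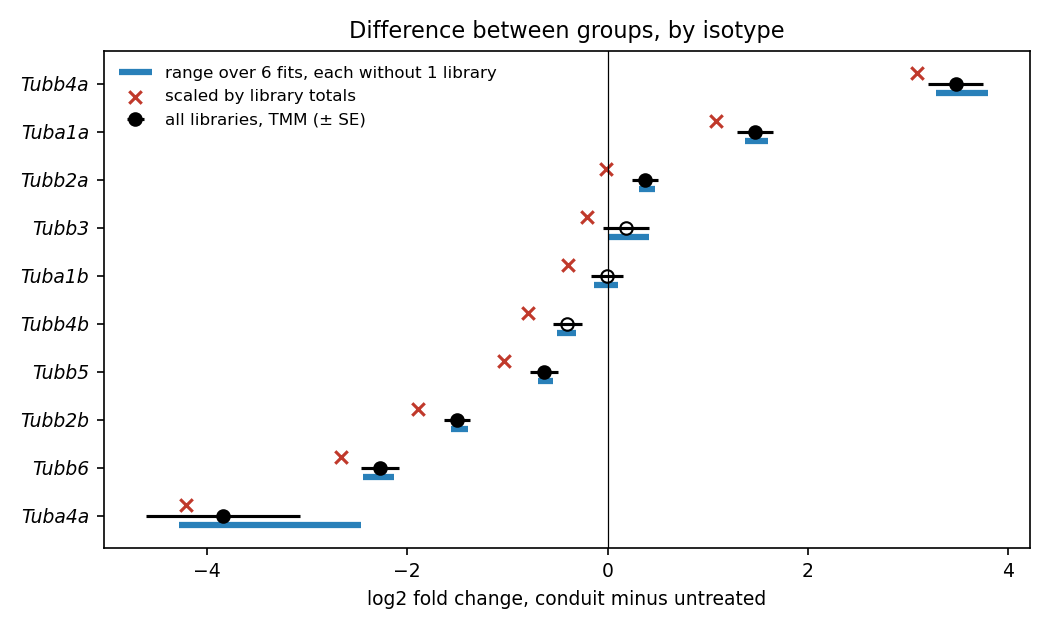
Log2 fold change (conduit minus untreated) of each tubulin gene with its SE (circles, filled where edgeR's adjusted p is under 0.05), the range over fits that each leave out 1 library (blue bars) and the value with scaling by library totals (red crosses). Tubb4a, Tuba1a, Tubb5, Tubb2b, Tubb6 and Tuba4a stay on their side of 0 in all of these, whereas the cross of Tubb2a lies at -0.015 and that of Tubb3 at -0.20.

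Per length, the order of the isotypes differed between the groups. By mean FPKM, untreated nerve had Tubb5 (568 ± 62.5), Tuba1b (507 ± 26.0) and Tuba1a (488 ± 56.7, SD, n = 3) at the top, and these overlapped with their neighbours in the order. Tubb4b (222) and Tubb6 (197) overlapped next, followed by Tubb2a (113) and Tubb2b (101), which overlapped too. Tuba4a (35.1), Tubb3 (16.6) and Tubb4a (14.2) were lowest and overlapped in that order. In conduit nerve Tuba1a led at 1037 ± 134 FPKM, apart from Tuba1b (386 ± 62.2) and Tubb5 (278 ± 10.3), which were also apart from each other. Tubb4b (129), Tubb4a (121) and Tubb2a (112) formed a run in which neighbours overlapped. Below them, Tubb6 (31.3), Tubb2b (27.2), Tubb3 (14.5) and Tuba4a (1.90) were each separate from the next. Tubb4a thus went from the last place of 10 to the fifth.

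Summed beta-tubulin FPKM was lower and summed alpha-tubulin FPKM higher in conduit nerve. The 7 beta members summed to 1232 ± 141 FPKM in untreated and 713 ± 26.5 FPKM in conduit nerve (SD, n = 3 each), a ratio of 0.579. The 3 alpha members summed to 1030 ± 96.5 and 1425 ± 193 FPKM, a ratio of 1.38. With FPKM divided by the TMM factor these ratios were 0.758 and 1.81, in the same directions. Groups did not overlap in either sum under both scalings (exact permutation test, two-sided, p = 0.1, the smallest possible). Within a library, alpha FPKM was 0.924, 0.713 and 0.891 times beta FPKM in untreated nerve and 2.25, 1.84 and 1.90 times in conduit nerve. These ratios cover the listed members only. The alpha sum leaves out Tuba1c, at 239.9 FPKM in untreated and 396 FPKM in conduit nerve. The beta sum leaves out Tubb1, at 1.31 and 0.359 FPKM. Whether alpha lay below beta in untreated nerve therefore depends on the list. Reads of tubulin copies may be split or dropped. This makes the ratio of alpha to beta mRNA and its difference between groups uncertain to an extent that was not tested.

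Within the beta-tubulin pool, the share of Tubb4a was larger in conduit nerve and those of Tubb6, Tubb2b and Tubb5 were smaller. The Tubb4a share of summed beta FPKM was 1.01%, 0.757% and 1.80% in untreated and 18.4%, 16.4% and 15.9% in conduit libraries. The share of Tubb6 went from 15.9 ± 2.54% to 4.40 ± 0.535%, that of Tubb2b from 8.18 ± 0.269% to 3.81 ± 0.0633%, and that of Tubb5 from 46.1 ± 1.60% to 39.0 ± 0.936% (SD, n = 3 each). The share of Tubb2a rose from 9.28 ± 1.34% to 15.8 ± 0.771% and that of Tubb3 from 1.34 ± 0.324% to 2.03 ± 0.278%. The mean FPKM, which is scaled by the library total, rose for neither gene. It was 113 in untreated and 112 in conduit nerve for Tubb2a, and 16.6 and 14.5 for Tubb3. On the TMM scale the means were 159 and 206 CPM for Tubb2a and 25.7 and 29.2 CPM for Tubb3, which did not pass. The beta sum fell from 1232 to 713 FPKM, or from 1076 to 816 with FPKM divided by the TMM factor. Tubb4b held 18.0 ± 0.787% and 18.1 ± 0.587% of the pool, and its groups overlapped. The other 6 isotypes had no overlap, each at an exact permutation p of 0.1 (two-sided, adjusted over 7 isotypes to 0.117), the smallest raw p that 3 against 3 libraries allow.

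Of the summed FPKM of the 3 alpha members, Tuba1a held a larger share in conduit nerve. It held 47.9%, 44.3% and 49.8% of that sum in untreated and 72.1%, 74.2% and 72.1% in conduit libraries. Tuba1b held 49.4 ± 4.26% and 27.1 ± 1.202%, and Tuba4a 6.78%, 1.81% and 1.03% in untreated and 0.123 to 0.148% in conduit libraries. No group overlapped (exact permutation test, two-sided, p = 0.1, adjusted over 3 isotypes to 0.1). The untreated share of Tuba4a was highest in replicate 1, the library with muscle transcripts. Without that library, the difference in its share was -1.29 percentage points in place of -3.08. The sum leaves out Tuba1c, at 239.9 ± 28.7 FPKM in untreated and 396 ± 13.3 FPKM in conduit nerve (SD, n = 3 each). With all alpha-tubulin genes in the sum, the difference in the Tuba1a share was 18.5 percentage points in place of 25.5, and that in the Tuba1b share -18.8 in place of -22.4.

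**Figure D4:**
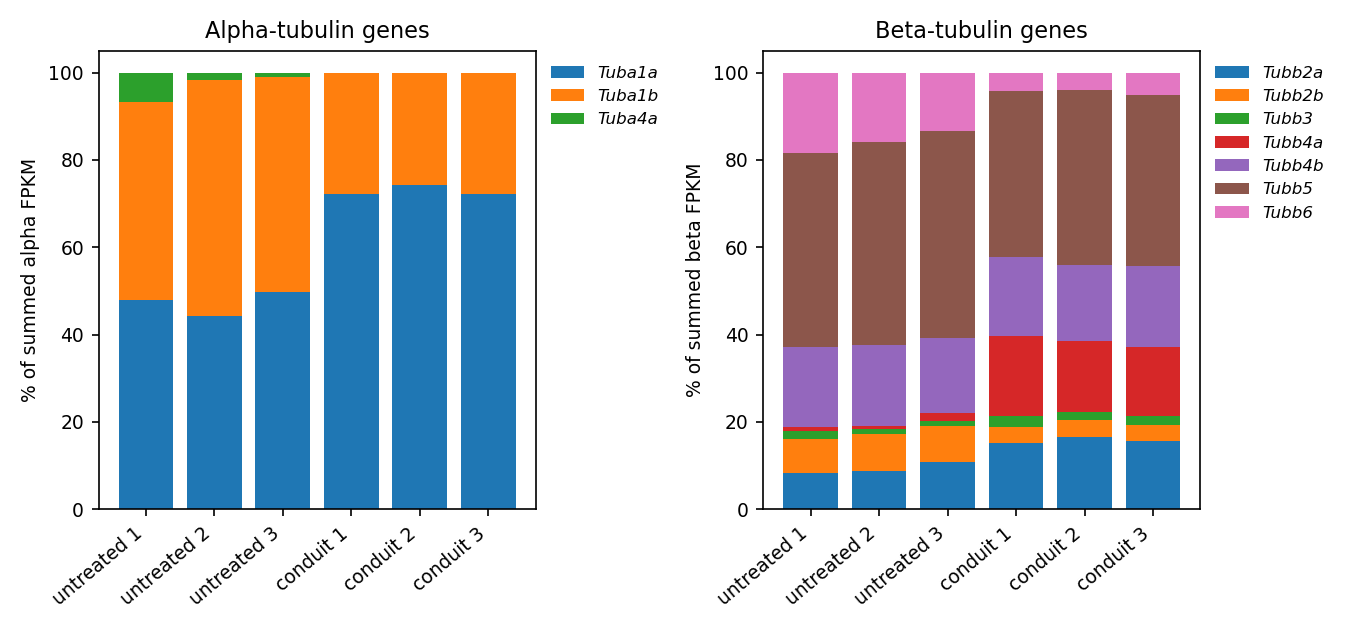
Share of each isotype in the summed FPKM of the 3 alpha members (left) and the 7 beta members (right), 1 bar per library, in percent. Tuba1a goes from 44.3 to 49.8% to 72.1 to 74.2% of the alpha pool, and Tubb4a from 0.757 to 1.80% to 15.9 to 18.4% of the beta pool.

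Tubulin must be folded before it polymerises, and the cytosolic chaperonin TRiC does this together with prefoldin and the tubulin cofactors. All 8 TRiC subunit genes fell in conduit nerve without overlap, by 0.61 (Cct2) to 1.16 (Cct6a) on the log2 scale. Of all genes tested, 26.2% fell and 32.2% were lower without overlap. Cct4, a subunit of the ring, went from 296, 295 and 240.5 CPM to 124, 124 and 132 CPM (log2 fold change -1.13 ± 0.14 SE, edgeR adjusted p = 0.000565). Cct6a, another subunit, went from 183, 203 and 148 CPM to 83.4, 74.3 and 82.1 CPM. The cofactors Tbca to Tbce, which assemble the dimer, lay between -0.06 and 0.17 and did not pass. Of the 5 prefoldin genes tested Pfdn6 passed, as lower (-0.48, edgeR adjusted p = 0.0479). Arl2, a small GTPase of the cofactor complex (0.50), Tbcel, a relative of the cofactors (0.64), and Ttc5 (0.83) rose. Ttc5 binds nascent tubulin and triggers decay of tubulin mRNA when free dimers are in excess, and it went from 15.7, 14.2 and 18.0 CPM to 29.96, 27.8 and 27.1 CPM (edgeR adjusted p = 0.0021). The Tbcel call did not hold with library totals (0.25, adjusted p = 0.322) or in 5 of the fits that left out a library. In the whole list 3 of 21 genes tested rose (14.3%, against 24.0% of all genes tested) and 9 fell (42.9%, against 26.2%), with a median of -0.23, and Vbp1 had no matching symbol.

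Among enzymes that modify tubulin after folding, of 21 tested 8 rose (38.1%, against 24.0% of all genes tested) and 2 fell (9.52%, against 26.2%), with a median log2 fold change of 0.33. Atat1, which acetylates alpha-tubulin inside the microtubule, rose from 8.29, 7.27 and 8.70 CPM to 22.8, 22.1 and 18.0 CPM (1.37 ± 0.16 SE, edgeR adjusted p = 0.000475). Sirt2, a deacetylase of the same residue that is abundant in myelinating glia, also rose, from 153 ± 6.09 to 296 ± 46.8 CPM (0.95). Hdac6, the other tubulin deacetylase, was at -0.19 and did not pass. The enzymes of the tyrosine cycle were mixed. Vash1, which removes the terminal tyrosine of alpha-tubulin, rose (0.86), and its relative Vash2 fell (-1.72, from 3.11 to 0.942 CPM), while their partner Svbp was at 0.45 and did not pass. Ttl, which puts the tyrosine back, rose by a small step (0.31, edgeR adjusted p = 0.0426). Ttll12, a member of the tubulin ligase family, fell from 38.3 ± 2.89 to 19.7 ± 2.02 CPM (-0.96). Vash1, Vash2, Svbp, Hdac6 and Ttl were named after their values were seen. With library totals 4 genes of this list rose and 5 fell.

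Among proteins that bind microtubules along their length, of 15 tested Map4 rose (6.67%, against 24.0% of all genes tested) and 4 fell (26.7%, against 26.2%), with a median of -0.0042. With a library left out, 1 to 3 of them fell. Map4, the microtubule-associated protein of non-neuronal cells, went from 508 ± 22.4 to 774 ± 21.0 CPM (0.61 ± 0.12 SE, edgeR adjusted p = 0.0057), or 0.22 with library totals, where it did not pass (adjusted p = 0.177). Dclk1, a doublecortin-like kinase, fell from 248 ± 69.3 to 95.9 ± 14.3 CPM (-1.37). Dcx, doublecortin of young neurons, was at 2.01, 13.5 and 1.93 CPM in untreated and 0.165, 0.170 and 0.733 CPM in conduit libraries (-4.01 ± 1.01 SE, edgeR adjusted p = 0.0138). Untreated replicate 2 was far above the others, and without it the log2 fold change was -2.45 (adjusted p = 0.0275). Without conduit replicate 2 it did not pass (-3.68, adjusted p = 0.0523). Map6 (-0.47) and Jpt1 (-0.58) were the other genes that fell. The neuronal proteins Mapt, tau (0.83), Map1b (0.05) and Map2 (-0.63) did not pass.

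Among proteins of microtubule ends, of 10 tested 5 rose (against 24.0% of all genes tested) and 1 fell (against 26.2%), with a median of 0.50, and Camsap3 did not pass the count filter. The end-binding proteins, which track growing plus ends, split between relatives. Mapre3, known from neurons and muscle, rose from 44.2, 19.97 and 24.3 CPM to 126, 113 and 85.2 CPM (1.88 ± 0.31 SE, edgeR adjusted p = 0.00227), whereas Mapre1, the general form, fell from 147, 171 and 131 CPM to 97.5, 82.3 and 92.8 CPM (-0.72). Clasp2, which stabilises plus ends, rose from 56.8 ± 8.07 to 174 ± 6.03 CPM (1.61), while its relative Clasp1 was at -0.08 and did not pass. Clip1 (0.49), Clip2 (1.15) and Camsap2, a minus-end protein (0.51), rose as well. With library totals 3 genes of this list rose and 2 fell.

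**Figure D5:**
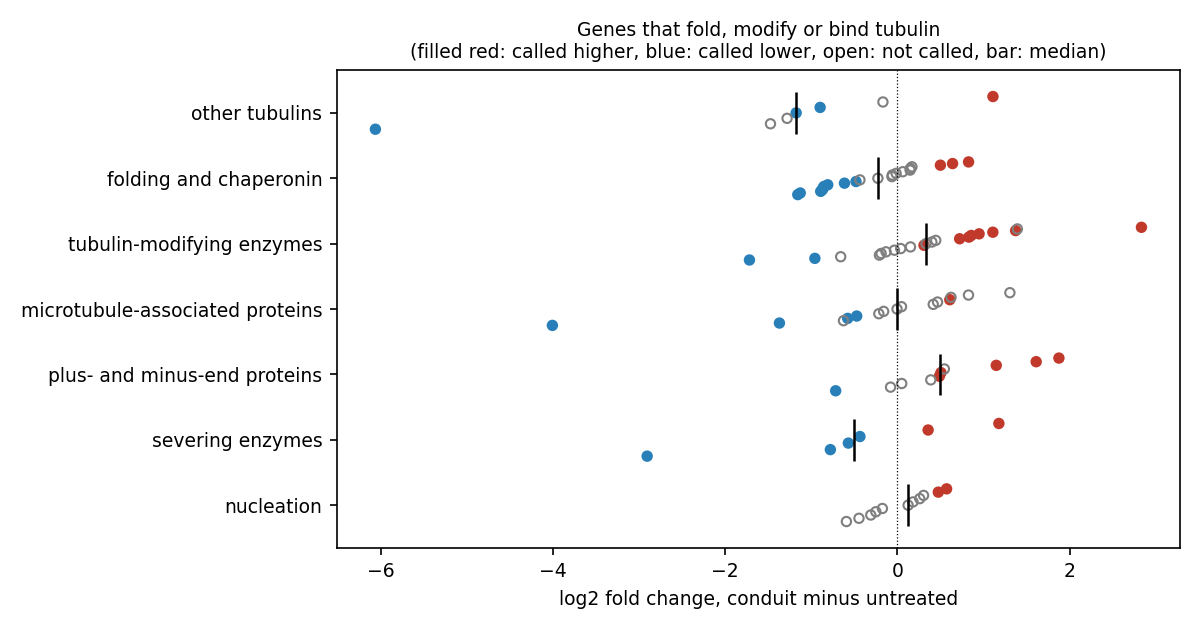
Log2 fold change (conduit minus untreated) of every tested gene in 7 lists of genes that fold, modify, cut, anchor or accompany tubulin, with 1 point per gene (red called higher, blue called lower, open not called) and a bar at each list's median. The folding list holds a cluster of 8 chaperonin genes between -1.16 and -0.61, and the median of the modifying enzymes lies at 0.33.

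Other tubulin genes of the table were mostly minor. Of 10 listed 7 passed the count filter, of which Tuba1c rose and 3 fell (42.9%, against 26.2% of all genes tested). Tubg1, the gamma-tubulin from which microtubules are seeded, fell from 35.8 ± 2.77 to 19.2 ± 2.33 CPM (-0.90), and Tube1, the epsilon-tubulin of centrioles, from 6.72 ± 1.10 to 2.97 ± 0.0805 CPM (-1.18). Tuba8, an alpha-tubulin known from muscle and testis, was at 23.4 CPM in untreated replicate 1, at 0.444 and 0.299 CPM in the other untreated libraries and at 0.0283 to 0.21 CPM in conduit libraries (-6.06 ± 1.91 SE, edgeR adjusted p = 0.0321). Without the muscle-containing replicate 1 it was at -1.65 and did not pass (adjusted p = 0.122), and it did not pass without any 1 of the conduit libraries either (adjusted p from 0.0737 to 0.0974). Tubb1, the beta-tubulin of platelets, was at 1.75, 1.25 and 7.48 CPM in untreated and 2.23, 1.39 and 0.157 CPM in conduit libraries, and did not pass (-1.47, edgeR adjusted p = 0.235).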

How the data were processed

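Messenger RNA of 6 rat sciatic nerve libraries was measured, 3 per group. The authors deposited raw counts per gene and, for each library, FPKM. The submitters' processing notes name the tools HISAT2, fastp, DESeq2 and HTSeq and the build mRatBN7.2, with versions, roles and strand setting not given in the sources used here. Deposited FPKM equalled count over 1 gene length and the library total for 20504 of 20504 genes that could be checked (relative tolerance 1e-04). Unused columns numbered 0.

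Counts were tested with edgeR 4.0.16 in R 4.3.3 (filterByExpr, minimum count 10, TMM, group as the sole term, two-sided, Benjamini-Hochberg), with SE as the fold change over the square root of F. The test was first tried on simulated data. Sums, shares and ratios were compared by exact permutation over 20 splits. As alternatives, DESeq2 1.42.0, scaling by RLE or by totals, no filter, a floor of 5 CPM in 3 libraries, a replicate block, robust dispersions and each library left out were run. FPKM was tested with limma 3.58.1 after adding 1 (filtered at 0.5 FPKM in 3 libraries, or unfiltered) or 0.1 and taking log2. Sums and shares were also computed from CPM without length, over all alpha- and beta-tubulin genes, and from TMM-scaled FPKM.

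Members, lists and tests were chosen with earlier results of these data known. The genes named were all members and, in each list, the 2 highest and 2 lowest called genes that reached 5 CPM in the group where they were higher. Further genes were named after their values were seen. For the called members at either end of the fold changes, the 3 genes nearest in centred log2 CPM (prior count 2) were taken. Promoter sequences came from RefSeq (GRCr8). One listed gene is not reported here.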

Additional observations from a re-analysis of the deposited data

How the results depend on the processing

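Tuba1a, Tuba4a, Tubb2b, Tubb4a, Tubb5 and Tubb6 kept direction and call in all 16 alternatives, and the members called ran from 2 to 3 higher and 4 to 5 lower. Tubb2a lost its call in 7 alternatives and turned in 4, at -0.015 with library totals and -0.012 with limma on FPKM in all 3 forms. Tubb3, never called, turned to -0.20 with library totals, -0.16 with limma on log2(FPKM + 1), filtered or not, and -0.17 with 0.1 added, and ran from -0.00040 to 0.42 with libraries left out. Tuba1b, also never called, turned to 0.021 with DESeq2 or RLE scaling, 0.0022 without a filter and 0.0050 at 5 CPM, with a range of -0.13 to 0.10 over left-out libraries. Its largest moves were to -0.39 with library totals (adjusted p = 0.0652) and -0.40 with limma (adjusted p from 0.0531 to 0.0881). The Tubb4b share difference ran from -0.38 to 0.39 percentage points over left-out libraries. Spast turned to -0.032 with library totals and to -0.023 (filtered or not) and -0.026 (0.1 added) with limma. Library totals and FPKM both scale by the total. The median log2 fold change over all genes was -0.43 with library totals. With limma on FPKM it was -0.34 after adding 1, -0.42 after adding 0.1 and -0.052 after adding 1 unfiltered. The cause of these turns and of the other changes was not tested.

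Counts in the accompanying lists moved more. With library totals 1 folding gene rose, 4 modifying genes rose and 5 fell, 0 microtubule-associated genes rose, 3 end-binding genes rose and 2 fell, 1 severing gene rose, and 0 nucleation genes rose and 5 fell. With limma on log2(FPKM + 1) or with 0.1 added these were 1, then 3 and 5, then 0, then 3 end-binding genes higher, 0 severing genes higher, and 0 and 5. Unfiltered limma gave 1 folding gene higher, 4 and 4 modifying, 0 microtubule-associated, 1 severing gene higher, and 0 and 2 nucleation genes. Microtubule-associated genes higher were 3 with DESeq2 and 2 with RLE scaling or at 5 CPM, where 5 modifying genes rose and 1 fell. Without a filter 1 severing gene rose and 2 fell, and with RLE scaling 2 fell. Over left-out libraries, folding genes higher ran from 1 to 3, modifying genes higher from 5 to 7, microtubule-associated genes from 1 to 3 higher and 1 to 3 lower, severing genes from 1 to 2 higher with 2 lower each time, and nucleation genes from 1 to 2 higher and 0 to 1 lower.

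The replicate numbers in the titles do not show that libraries pair. Same-numbered libraries correlated at 0.144, -0.028 and 0.0636 in their deviations from group means, and untreated replicate 2 correlated best with conduit replicate 3. With the replicate block 7514 genes were called against 7760, Tubb2a was at 0.37 (adjusted p = 0.0654), 2 microtubule-associated genes and 1 severing gene rose. The lowest count of any member in a library was 168 (Tuba4a, conduit replicate 2).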

Other observations

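Severing enzymes, which cut microtubules, went both ways. Of 6 tested 2 rose and 4 fell, with a median log2 fold change of -0.50, where 50.2% of all genes tested changed in either direction. In each fit that left out a library, 2 of them fell. Fign, fidgetin, was at 4.999, 8.02 and 5.36 CPM in untreated and 15.1, 12.5 and 14.0 CPM in conduit libraries (1.18 ± 0.22 SE, edgeR adjusted p = 0.00404). Spast, spastin, passed narrowly as higher (0.36, edgeR adjusted p = 0.0458) and lost its call when any library other than untreated replicate 2 was left out. The katanin subunits Katna1 (-0.78) and Katnal1 (-0.57) fell, and Katnal1 lost its call in each of the 6 fits that left out a library. Fignl1 (-2.91) fell as well. In the nucleation list, the genes that seed microtubules together with gamma-tubulin, Akap9 (0.57) and Tubgcp3 (0.47) of 11 rose (18.2%, against 24.0% of all genes tested) and 0 fell by edgeR, with 1 lower at an unadjusted p under 0.05 and 0 lower by DESeq2. With library totals Akap9 (0.18, adjusted p = 0.343) and Tubgcp3 (0.08, adjusted p = 0.677) did not pass. Leaving out untreated replicate 1, untreated replicate 3, conduit replicate 1 or conduit replicate 2 also ended the Tubgcp3 call (adjusted p from 0.0875 to 0.129).

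Among 11330 tested genes with a mean of at least 5 CPM, the profiles nearest to Tubb4a over the 6 libraries were those of Lgr5, Sec22c and Hspa12a. Their root mean square differences from Tubb4a in centred log2 CPM were 0.0525, 0.0543 and 0.101. Lgr5 was at 3.09, 2.22 and 4.42 CPM in untreated and 39.0, 37.8 and 31.6 CPM in conduit libraries, with untreated replicate 3 the highest of its group as for Tubb4a. The profiles nearest to Tuba4a were those of Slfn4 (0.352), Cd300c2 (0.616) and Fcnb (0.648), which were not as close. Slfn4 was at 145, 34.3 and 35.2 CPM in untreated libraries, highest in replicate 1 as for Tuba4a, and at 9.79, 5.26 and 6.13 CPM in conduit libraries. The genes were picked for likeness over the same 6 libraries, so a shared order within a group is in part built into the choice. These are descriptions over 6 libraries of 2 groups and carry no test.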
